A study of Arabidopsis thaliana with 12 samples.

Results

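The genes described here carry out nitrate uptake, nitrate reduction and the building of glutamine and glutamate in Arabidopsis thaliana: the nitrate transporter NRT1.1 (AT1G12110), the nitrate reductases NIA1 (AT1G77760) and NIA2 (AT1G37130), the nitrite reductase NIR1 (AT2G15620), the cytosolic glutamine synthetases GLN1;1 (AT5G37600), GLN1;2 (AT1G66200) and GLN1;3 (AT3G17820), the plastid glutamine synthetase GLN2 (AT5G35630), the ferredoxin-dependent glutamate synthase GLU1 (AT5G04140) and the glutamate dehydrogenase subunit GDH2 (AT5G07440). They were chosen by locus identifier, with no measured value in the rule, although earlier results of these data were known. All 10 were among the 33655 features of the count table, and all 10 were among the 17841 that passed the filter on low counts. Their counts in a library ran from 57 to 12837.

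Plants take up nitrate through transporters of the NRT families, reduce it to nitrite in the cytosol and nitrite to ammonium in plastids, and join the ammonium to glutamate to make glutamine. Glutamate synthase then returns glutamate, so that glutamine synthetase and glutamate synthase form a cycle. In leaves the plastid enzymes GLN2 and GLU1 also recover the ammonium that photorespiration sets free, whereas glutamate dehydrogenase mostly breaks glutamate down and is known as a marker of carbon shortage.

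Whole seedlings were compared at 6 days of age by 3′ Tag-Seq, which reads transcripts at their 3′ ends and gives counts that do not scale with transcript length. There were 4 groups of 3 libraries: spaQ at 28 °C, spaQ at 22 °C, Col-0 at 28 °C and Col-0 at 22 °C. Col-0 is the wild-type accession. SpaQ is known as a quadruple mutant of the SPA genes, whose proteins are partners of the COP1 ubiquitin ligase that represses light responses. The labels name no alleles for it and do not say whether replicates were separate cultures, so p-values measure only the spread between these libraries. All groups had 3 days of cold in the dark on MS medium without sucrose and 5 days of white light (25 µmol) at 22 °C. The text for the whole series then gives 24 h of treatment, whereas the protocol of every library gives 4 h and names only 22 °C, so the length of the treatment at 28 °C is not settled by the labels. The study asks what SPA proteins do to the response of genes to warmth.

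Total counts per library ran from 2609808 to 9390725. SPA1, SPA2 and SPA3 were lower in spaQ than in Col-0 at 28 °C, with log2 fold changes of -1.63, -1.09 and -0.96, and also at 22 °C, with -1.65, -0.92 and -1.69. SPA4 was higher in spaQ, with 1.32 at 28 °C and 1.19 at 22 °C. Without the alleles it is not known whether a 3′ tag lies in a disrupted stretch, so the SPA4 tag is no check of the label. Replicate 2 of spaQ at 28 °C stood apart from the other replicates of its group: the chi-square per degree of freedom was 20.7 and 24.8 against them and 5.88 between them. Results that include spaQ at 28 °C are therefore also given without it where a call of the 10 genes changed or a count over a list of genes moved by over 1.5 times. Values below are counts scaled to a common library size (CPM) after TMM normalisation. With library totals alone, the all-gene median log2 value moved to 0.19 from -0.02 for warmth in Col-0, and to -0.23 from 0.03 for genotype at 28 °C. The share of called genes that were higher then became 68.3% in place of 46.4% for warmth in Col-0, 28.5% in place of 56.2% for genotype at 28 °C, and 25.6% in place of 55.5% for the difference between the warm responses, whose median moved to -0.12 from 0.06.

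In Col-0, warmth lowered NIR1 and both plastid ammonium-assimilating enzymes, GLN2 and GLU1, and raised GDH2, GLN1;1 and GLN1;3. That is 3 of the 10 genes higher and 3 lower, where 40.8% of all tested genes were called, 18.9% higher and 21.9% lower (edgeR's quasi-likelihood test, Benjamini-Hochberg adjusted p under 0.05 over 17841 genes). The libraries of 7 genes did not overlap between the temperatures. For all tested genes this share was not computed, so the count only describes the 10 genes. The median log2 fold change was -0.15 over the 10 genes and -0.02 over all tested genes. In spaQ, none of the 10 genes passed the edgeR test for warmth, 2 had an unadjusted p under 0.05 and DESeq2 called 0, where edgeR called 12.4% of all tested genes, 6.55% higher and 5.87% lower. With only the spaQ libraries in the fit, edgeR called 418 of all genes in place of 2217, and again 0 of the 10. The share of all genes called for warmth in spaQ therefore depended on the libraries in the fit. In spaQ the libraries of all 10 overlapped between the temperatures. The share over all tested genes was not computed here either, so this count and its contrast with Col-0 only describe the 10 genes. The medians in spaQ were -0.02 for the 10 genes and 0.02 for all. Without replicate 2 of spaQ at 28 °C, 3 genes passed: NIA1 fell by 0.54 on the log2 scale (adjusted p = 0.0345), GLU1 fell by 0.37 (adjusted p = 0.0245) and GDH2 rose by 0.84 (adjusted p = 0.0175).

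Between the genotypes, both nitrate reductases, GLU1 and GDH2 were higher in spaQ at both temperatures, and NRT1.1 and GLN1;3 were lower. At 28 °C, 7 were higher in spaQ than in Col-0 (NIA1, NIA2, NIR1, GLN1;2, GLN2, GLU1 and GDH2) and 2 were lower (NRT1.1 and GLN1;3), where 30.9% of all tested genes were called, 17.4% higher and 13.5% lower. At 22 °C, 4 were higher (NIA1, NIA2, GLU1 and GDH2) and the 2 named above were lower, where 42.5% of all tested genes were called, 20.7% higher and 21.7% lower. The libraries of 9 genes did not overlap between the genotypes at each temperature, all but GLN1;1 at 28 °C and all but GLN2 at 22 °C. The share of all tested genes without overlap was not computed, so these counts only describe the 10 genes. The median log2 fold change over the 10 genes was 0.64 at 28 °C and 0.34 at 22 °C, and over all tested genes 0.03 and -0.05. The warm response differed between the genotypes for 2 of the 10, NIR1 and GLN2, both with a higher value in spaQ, where 11.8% of all tested genes were called, 6.56% with a higher and 5.27% with a lower response in spaQ. Both comparisons of temperature and both of genotype use the same 4 groups, so they are not independent of each other. In whole seedlings, fewer cells of a type and less RNA per cell cannot be told apart.

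**Figure D1:**
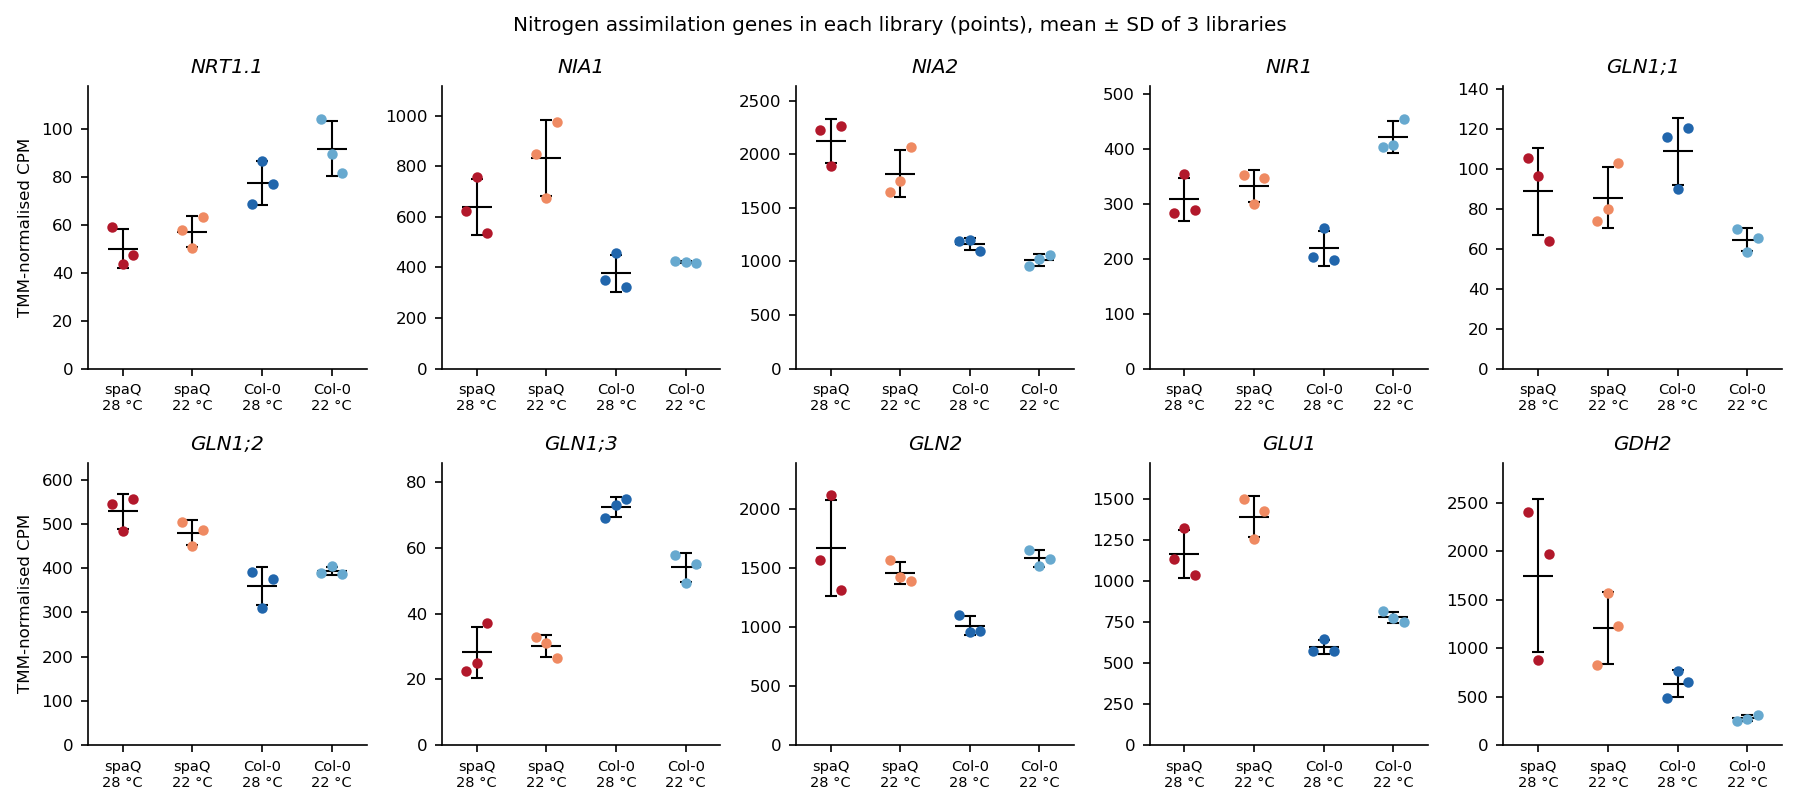
TMM-normalised CPM (vertical axis, from 0) of the 10 genes in every library, by genotype and temperature. Points are libraries and bars are the mean ± SD of 3 libraries. NIA1, NIA2, GLU1 and GDH2 lay higher in all 6 spaQ libraries than in all 6 Col-0 libraries, GLN1;3 and NRT1.1 lay lower, and NIR1 and GLN2 were lowest in Col-0 at 28 °C.

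NRT1.1, which carries nitrate across the plasma membrane and also acts as a nitrate sensor, was lower in spaQ. It had 59.2, 43.9 and 47.4 CPM in spaQ at 28 °C, against 68.7, 86.8 and 77.3 CPM in Col-0 at 28 °C. It had 58.0, 50.4 and 63.2 CPM in spaQ at 22 °C, against 104, 89.7 and 81.6 CPM in Col-0 at 22 °C. All 6 spaQ libraries were below all 6 Col-0 libraries. The log2 fold change of spaQ over Col-0 was -0.63 ± 0.15 (SE) at 28 °C (edgeR, adjusted p = 0.0053) and -0.68 ± 0.15 at 22 °C (adjusted p = 0.00272), which is 1.55-fold and 1.6-fold lower. Warmth did not pass the test in spaQ (-0.20 ± 0.15, adjusted p = 0.432) or in Col-0 (-0.25 ± 0.14, adjusted p = 0.188), and in each genotype the 2 temperatures overlapped. The order of the means was Col-0 at 22 °C, Col-0 at 28 °C, spaQ at 22 °C and spaQ at 28 °C, with a gap only between the genotypes.

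Both nitrate reductases, the cytosolic enzymes that turn nitrate into nitrite, were higher in spaQ. NIA1 had 623, 757 and 535 CPM in spaQ at 28 °C, against 348, 458 and 322 CPM in Col-0 at 28 °C. It had 847, 674 and 974 CPM in spaQ at 22 °C, against 423, 422 and 417 CPM in Col-0 at 22 °C. Every spaQ library was above every Col-0 library, and the spread was wide in spaQ and narrow in Col-0 at 22 °C. NIA1 was 1.7-fold higher in spaQ at 28 °C (log2 0.77 ± 0.17 SE, edgeR adjusted p = 0.00414) and 1.98-fold higher at 22 °C (log2 0.98 ± 0.17, adjusted p = 0.000715). Warmth gave log2 values of -0.38 ± 0.17 in spaQ (adjusted p = 0.163) and -0.17 ± 0.17 in Col-0 (adjusted p = 0.466), neither past the threshold, and the 2 temperatures overlapped within each genotype.

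NIA2, which in Arabidopsis provides most of the nitrate reductase activity, had 2227, 1894 and 2262 CPM in spaQ at 28 °C, against 1189, 1199 and 1094 CPM in Col-0 at 28 °C. It had 1647, 1749 and 2067 CPM in spaQ at 22 °C, against 956, 1020 and 1065 CPM in Col-0 at 22 °C. The genotypes were again separate at both temperatures. NIA2 was 1.83-fold higher in spaQ at 28 °C (log2 0.88 ± 0.12 SE, edgeR adjusted p = 0.000123) and 1.8-fold higher at 22 °C (log2 0.85 ± 0.12, adjusted p = 0.000153). Its highest mean was in spaQ at 28 °C, which overlapped spaQ at 22 °C. Col-0 at 28 °C came next and lay just above Col-0 at 22 °C without overlap, a log2 difference of 0.20 ± 0.12 that did not pass the test (adjusted p = 0.209). That difference passed without replicate 2 of spaQ at 28 °C (0.26, adjusted p = 0.0436), with only the Col-0 libraries in the fit (0.25, adjusted p = 0.0107) and with library totals, where it was 0.41 (adjusted p = 0.0131).

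The balance of the nitrate reductase pair was described by the share of NIA2 in their summed counts, which gene length does not affect when libraries are compared. That share was 76.8% ± 4.85 in spaQ at 28 °C and 68.7% ± 3.13 in spaQ at 22 °C, and 75.7% ± 2.85 in Col-0 at 28 °C and 70.6% ± 1.27 in Col-0 at 22 °C (SD, n = 3 each). In Col-0 it was 5.03 percentage points higher at 28 °C with no overlap, which gave an exact two-sided permutation p of 0.1, the smallest that 3 against 3 libraries allow. In spaQ it was 8.09 points higher at 28 °C with overlap (exact permutation p = 0.2). At neither temperature did the genotypes separate in this share.

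NIR1, the plastid enzyme that reduces nitrite to ammonium with electrons from ferredoxin, showed a warm response that differed between the genotypes. It had 282, 353 and 288 CPM in spaQ at 28 °C, compared with 351, 299 and 347 CPM in spaQ at 22 °C. It had 203, 256 and 197 CPM in Col-0 at 28 °C, against 402, 406 and 454 CPM in Col-0 at 22 °C. The temperatures overlapped in spaQ and were far apart in Col-0, where all warm libraries were below all of the others. NIR1 was 1.93-fold lower at 28 °C in Col-0 (log2 -0.95 ± 0.13 SE, edgeR adjusted p = 0.000175) and changed by -0.11 ± 0.13 in spaQ (adjusted p = 0.641). The difference between the warm responses, spaQ minus Col-0, was 0.83 ± 0.19 on the log2 scale (adjusted p = 0.0162).

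The order of the NIR1 means was Col-0 at 22 °C, spaQ at 22 °C, spaQ at 28 °C and Col-0 at 28 °C, and only the spaQ pair in the middle overlapped. At 28 °C NIR1 was 1.41-fold higher in spaQ than in Col-0 (log2 0.50 ± 0.13 SE, edgeR adjusted p = 0.0128), and at 22 °C the log2 value was -0.34 ± 0.13 (adjusted p = 0.0565). The difference between the warm responses missed the threshold, with log2 values of 0.76 to 0.80 and adjusted p of 0.05 to 0.058, without any of the Col-0 replicates at 22 °C or without replicate 2 or 3 of spaQ at 22 °C. The call at 28 °C was lost without replicate 1 of Col-0 at 28 °C (adjusted p = 0.0587) or replicate 3 (adjusted p = 0.0602), with only the libraries compared (0.45, adjusted p = 0.0982), and with library totals (0.23, adjusted p = 0.22). The value at 22 °C passed without replicate 2 of spaQ at 28 °C (-0.30, adjusted p = 0.0472) or replicate 2 of Col-0 at 28 °C (-0.34, adjusted p = 0.046), with library totals (-0.42, adjusted p = 0.0278) and with only the libraries compared (-0.30, adjusted p = 0.0248).

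The 3 cytosolic glutamine synthetases, which supply glutamine for transport and for recovered nitrogen, each had a pattern of its own. GLN1;1 had 105, 96.5 and 63.9 CPM in spaQ at 28 °C, compared with 73.7, 79.8 and 103 CPM in spaQ at 22 °C. It had 116, 89.6 and 120.1 CPM in Col-0 at 28 °C, against 70.0, 58.2 and 65.3 CPM in Col-0 at 22 °C. The spaQ libraries overlapped between temperatures and the Col-0 libraries did not. GLN1;1 was 1.69-fold higher at 28 °C in Col-0 (log2 0.76 ± 0.19 SE, edgeR adjusted p = 0.0064) and changed by 0.06 ± 0.19 in spaQ (adjusted p = 0.884). The difference between these responses was -0.70 ± 0.27 and did not pass the test (adjusted p = 0.11). With library totals it was -0.88 and passed (adjusted p = 0.0454). Genotype did not pass either, with -0.30 ± 0.19 at 28 °C (adjusted p = 0.254) and 0.40 ± 0.19 at 22 °C (adjusted p = 0.111). With library totals the value at 28 °C was -0.57 and passed (adjusted p = 0.0255). The value at 22 °C passed without replicate 3 of spaQ at 28 °C (0.40, adjusted p = 0.0497) and with only the libraries compared (0.43, adjusted p = 0.0201). Col-0 at 22 °C had the lowest mean and did not overlap spaQ at 22 °C, the next in order, although replicate 3 of spaQ at 28 °C lay within its range. The other neighbours in the order, spaQ at 22 °C, spaQ at 28 °C and Col-0 at 28 °C, overlapped.

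GLN1;2 differed by genotype. It had 545, 484 and 558 CPM in spaQ at 28 °C, against 392, 310.3 and 375 CPM in Col-0 at 28 °C. It had 505, 449.8 and 487 CPM in spaQ at 22 °C, against 389, 405 and 388 CPM in Col-0 at 22 °C. All spaQ libraries were above all Col-0 libraries, and within each genotype the 2 temperatures overlapped. GLN1;2 was 1.47-fold higher in spaQ at 28 °C (log2 0.56 ± 0.11 SE, edgeR adjusted p = 0.00218). At 22 °C the value was 0.29 ± 0.11 (adjusted p = 0.0551), and it passed with adjusted p of 0.0135, 0.0482 and 0.0426 when replicate 2 or 3 of spaQ at 28 °C or replicate 2 of Col-0 at 28 °C was left out of the shared fit, and with 0.32 by DESeq2 (adjusted p = 0.0166). With library totals the call at 28 °C was lost (0.29, adjusted p = 0.0583). Warmth gave 0.14 ± 0.11 in spaQ (adjusted p = 0.463) and -0.13 ± 0.11 in Col-0 (adjusted p = 0.372).

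GLN1;3 ran the other way and was the gene most reduced in spaQ among the 10. It had 22.5, 25.1 and 37.0 CPM in spaQ at 28 °C, against 69.1, 73.2 and 75.0 CPM in Col-0 at 28 °C. It had 33.0, 30.9 and 26.6 CPM in spaQ at 22 °C, against 58.0, 49.3 and 55.1 CPM in Col-0 at 22 °C. All spaQ libraries were below all Col-0 libraries, and in Col-0 the warm libraries were above the others. GLN1;3 was 2.56-fold lower in spaQ at 28 °C (log2 -1.36 ± 0.16 SE, edgeR adjusted p = 4.21e-05) and 1.78-fold lower at 22 °C (log2 -0.83 ± 0.16, adjusted p = 0.00145). Warmth raised it 1.34-fold in Col-0 (log2 0.42 ± 0.15, adjusted p = 0.0409), and gave -0.11 ± 0.17 in spaQ (adjusted p = 0.743). The rise in Col-0 lost its call, with log2 values of 0.40 to 0.46 and adjusted p of 0.0506 to 0.108, without replicate 2 or 3 of Col-0 at 22 °C, any replicate of Col-0 at 28 °C or replicate 2 of spaQ at 22 °C. The difference between the warm responses was -0.52 ± 0.23 (adjusted p = 0.154), and it passed without replicate 3 of spaQ at 28 °C (-0.77, adjusted p = 0.0143).

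The make-up of the summed counts of these 3 cytosolic glutamine synthetases therefore differed between groups. The related genes GLN1;4 and GLN1;5, with at most 2.51 and 2.23 CPM in any library, were left out of the sum. GLN1;3 made up 4.37% ± 1.15 of the 3-gene sum in spaQ at 28 °C and 5.08% ± 0.66 in spaQ at 22 °C, against 13.5% ± 1.79 in Col-0 at 28 °C and 10.6% ± 0.83 in Col-0 at 22 °C (SD, n = 3 each). GLN1;2 made up 81.9% ± 2.49 and 80.6% ± 1.78 in spaQ at 28 °C and 22 °C, against 66.4% ± 1.31 and 76.9% ± 1.94 in Col-0 at 28 °C and 22 °C. Neither share overlapped between the genotypes at either temperature, and in Col-0 neither overlapped between temperatures, each with an exact permutation p of 0.1. GLN1;1 made up 13.8% ± 3.52 in spaQ at 28 °C and 14.3% ± 2.3 in spaQ at 22 °C, against 20.03% ± 1.06 in Col-0 at 28 °C and 12.6% ± 1.11 in Col-0 at 22 °C. In spaQ the temperatures overlapped for all 3 shares, with exact permutation p of 0.8, 0.6 and 0.5 for GLN1;1, GLN1;2 and GLN1;3.

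**Figure D2:**
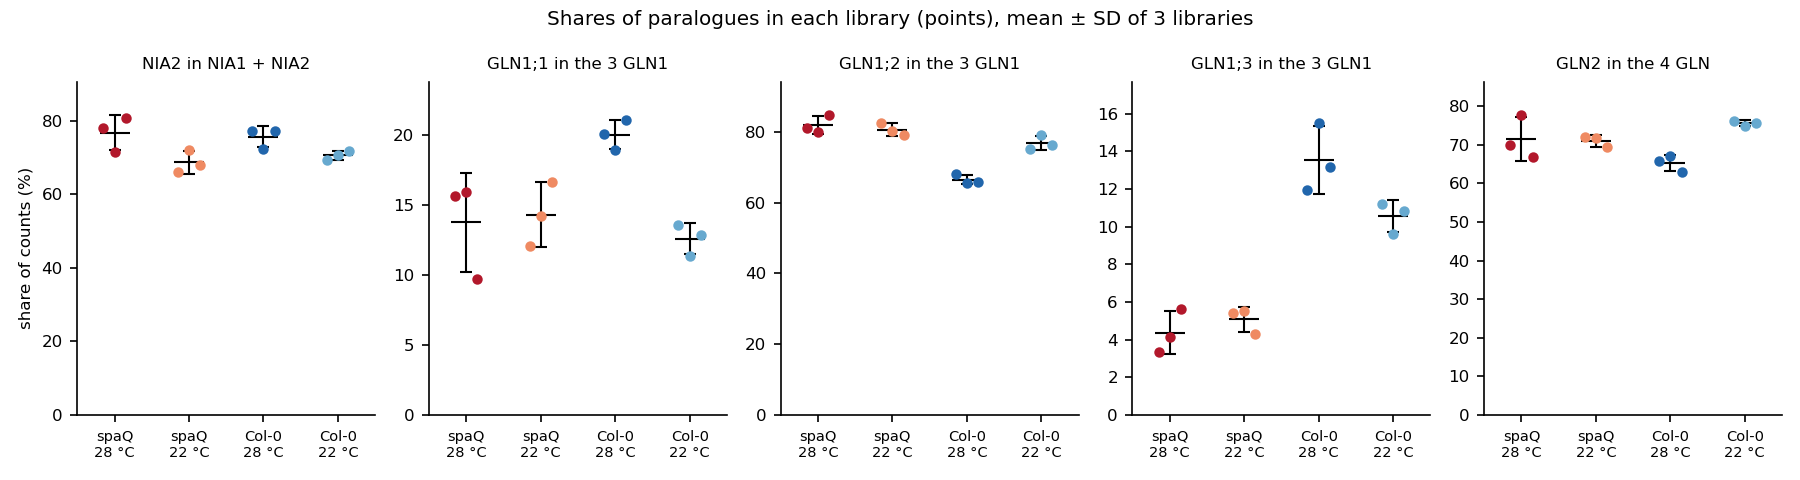
Share of counts (vertical axes, percent, from 0) of NIA2 in the nitrate reductase pair, of each cytosolic glutamine synthetase in the sum of 3, and of GLN2 in the sum of all 4 glutamine synthetases. Points are libraries and bars are the mean ± SD of 3 libraries. GLN1;3 took 4.37% and 5.08% in spaQ at 28 °C and 22 °C, against 13.5% and 10.6% in Col-0 at 28 °C and 22 °C.

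GLN2, the plastid glutamine synthetase of green tissue, fell with warmth in Col-0. It had 1574, 2120 and 1319 CPM in spaQ at 28 °C, compared with 1567, 1424 and 1390 CPM in spaQ at 22 °C. It had 1105, 961 and 967 CPM in Col-0 at 28 °C, against 1659, 1518 and 1576 CPM in Col-0 at 22 °C. The warm Col-0 libraries were below all 9 others, and the remaining groups overlapped each other in order of mean. GLN2 was 1.57-fold lower at 28 °C in Col-0 (log2 -0.65 ± 0.15 SE, edgeR adjusted p = 0.00455), and changed by 0.19 ± 0.15 in spaQ (adjusted p = 0.44).

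At 28 °C GLN2 was 1.65-fold higher in spaQ than in Col-0 (log2 0.72 ± 0.15 SE, edgeR adjusted p = 0.00283), and at 22 °C the value was -0.12 ± 0.15 (adjusted p = 0.563) with overlap. The difference between the warm responses was 0.84 ± 0.21 (adjusted p = 0.0255). Without replicate 2 of spaQ at 28 °C, the highest GLN2 library, it was 0.56 (adjusted p = 0.0261). It missed the threshold, with 0.73 to 0.85 and adjusted p of 0.0617 to 0.0928, without any replicate of Col-0 at 22 °C, replicate 2 or 3 of Col-0 at 28 °C or replicate 2 or 3 of spaQ at 22 °C. The share of GLN2 in the counts of the 4 glutamine synthetases among the 10 genes was 71.5% ± 5.68 in spaQ at 28 °C and 71.0% ± 1.48 in spaQ at 22 °C. In Col-0 it was 65.2% ± 2.1 at 28 °C and 75.5% ± 0.74 at 22 °C (SD, n = 3 each). It was 10.3 points lower at 28 °C in Col-0 with no overlap (exact permutation p = 0.1), and the temperatures overlapped in spaQ (exact permutation p = 0.9).

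GLU1, the main leaf glutamate synthase, was higher in spaQ at both temperatures. It had 1133, 1323 and 1039 CPM in spaQ at 28 °C, against 573, 648 and 574 CPM in Col-0 at 28 °C. It had 1497, 1253 and 1426 CPM in spaQ at 22 °C, against 815, 775 and 747 CPM in Col-0 at 22 °C. The genotypes were separate, and so were the temperatures in Col-0. GLU1 was 1.95-fold higher in spaQ at 28 °C (log2 0.96 ± 0.12 SE, edgeR adjusted p = 6.29e-05) and 1.79-fold higher at 22 °C (log2 0.84 ± 0.12, adjusted p = 0.000166). Warmth lowered it 1.3-fold in Col-0 (log2 -0.38 ± 0.12, adjusted p = 0.0211) and gave -0.26 ± 0.12 in spaQ (adjusted p = 0.177). The fall in Col-0 lost its call, with -0.35 to -0.29 and adjusted p of 0.0608 to 0.141, without replicate 1 or 2 of Col-0 at 22 °C, replicate 1 or 3 of Col-0 at 28 °C or replicate 3 of spaQ at 22 °C. With library totals it was -0.17 (adjusted p = 0.304) and without a filter on low counts -0.29 (adjusted p = 0.0973). GLU1 overlaps AT5G04150 on the other strand in the RefSeq annotation, and since the strand setting of the counting is not given in the sources used here, its counts are uncertain in that respect.

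GDH2, the alpha subunit of mitochondrial glutamate dehydrogenase, had the largest genotype difference of the 10 genes. It had 2401, 872 and 1968 CPM in spaQ at 28 °C, against 485, 759 and 655 CPM in Col-0 at 28 °C. It had 829, 1572 and 1232 CPM in spaQ at 22 °C, against 248, 266 and 309.9 CPM in Col-0 at 22 °C. Every spaQ library was above every Col-0 library, replicate 2 was the lowest at 28 °C in spaQ, and the warm Col-0 libraries were above the other Col-0 libraries. GDH2 was 2.76-fold higher in spaQ at 28 °C (log2 1.47 ± 0.32 SE, edgeR adjusted p = 0.00376) and 4.41-fold higher at 22 °C (log2 2.14 ± 0.33, adjusted p = 0.000299).

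Warmth raised GDH2 2.3-fold in Col-0 (log2 1.203 ± 0.32 SE, edgeR adjusted p = 0.00962) and gave 0.53 ± 0.32 in spaQ (adjusted p = 0.3, and 0.84 with adjusted p = 0.0175 without replicate 2 at 28 °C). The difference between the responses was -0.67 ± 0.45 (adjusted p = 0.366). The order of means was spaQ at 28 °C, spaQ at 22 °C, Col-0 at 28 °C and Col-0 at 22 °C, with overlap only between the spaQ groups. GDH1 (AT5G18170), which encodes the beta subunit of the same enzyme, passed in none of these comparisons, with log2 values of -0.57 and 0.40 for spaQ over Col-0 at 28 °C and 22 °C (adjusted p = 0.0597 and 0.156). It was named after its values were seen.

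**Figure D3:**
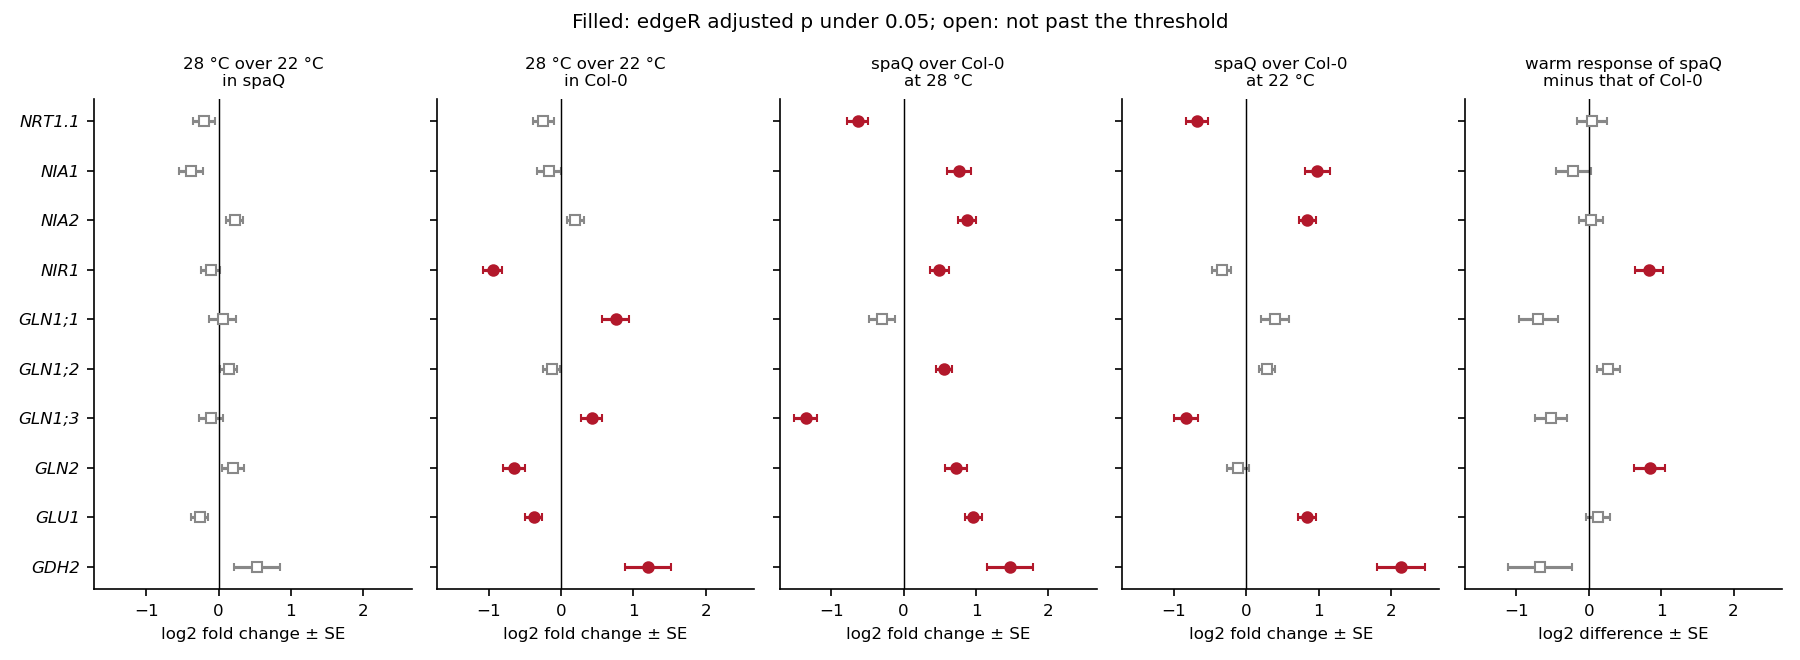
Log2 fold change ± SE (horizontal axes) of the 10 genes in the 5 comparisons, with filled points for an edgeR adjusted p under 0.05 and open points otherwise. No point is filled for warmth in spaQ, 6 are for warmth in Col-0, 9 and 6 for genotype at 28 °C and 22 °C, and 2, NIR1 and GLN2, for the difference between the warm responses.

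Markers of root and leaf tissue moved with the groups. The 20 root genes were Casparian strip, root hair, root tip and other root genes, among them CASP1 to CASP5, COBL9 and IRT1. Their summed CPM was 26.3 to 115.5 in spaQ at 28 °C and 52.8 to 115.8 in spaQ at 22 °C. In Col-0 it was 42.8 to 55.1 at 28 °C and 263 to 298 at 22 °C. IRT1 alone had a mean of 74.8 CPM in Col-0 at 22 °C and of 5.32 CPM or less in the other groups, so genes weighed unevenly in the sum. Col-0 at 22 °C was far above the other groups, and replicate 2 at 28 °C and replicate 1 at 22 °C were the highest spaQ libraries. For warmth in Col-0, 14 of the 15 root genes tested were lower, with a median log2 fold change of -2.28, where 21.9% of all tested genes were lower. At 22 °C, 8 of the 15 were lower and 1 was higher in spaQ than in Col-0, where 21.7% and 20.7% of all tested genes were. A higher warm response in spaQ was called for 5, where 6.56% of all tested genes had one. Without replicate 2 of spaQ at 28 °C, 11 were lower and 1 higher at 22 °C, and 2 had a higher warm response. For warmth in spaQ edgeR called 0 of the 15, where it called 12.4% of all tested genes. Of the 15, 2 had an unadjusted p under 0.05 and DESeq2 called 0. Without replicate 2 at 28 °C, however, edgeR called 8 lower. It called 3 lower when replicate 1 of spaQ at 22 °C, the other high root sum, was also left out. That choice was made after seeing the data. Of the 20 root genes, 10 had no count in replicate 1 of spaQ at 28 °C, 5 had none in replicate 3, and all had counts in replicate 2 and in Col-0 at 22 °C. LRX1, PLT2 and CASP5 were at 0 in both of those spaQ libraries.

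The summed CPM of 12 photosynthesis genes used as leaf markers was 33390 to 50600 in spaQ at 28 °C, 50810 to 57440 in spaQ at 22 °C, 22010 to 25300 in Col-0 at 28 °C and 46410 to 50670 in Col-0 at 22 °C. The warm Col-0 libraries were the lowest, as they were for NIR1 and GLN2. Leaf genes also weighed unevenly, and RBCS1A had the largest mean of the 12 in every group. Its mean at 22 °C was 29230 CPM for spaQ against 20140 CPM for Col-0. At 28 °C it was 19930 CPM for spaQ against 7725 CPM for Col-0. The leaf sum was higher in spaQ at 22 °C, whereas edgeR called 5 of the 12 genes lower and 3 higher there. For warmth in Col-0, 11 of the 12 leaf genes were lower (median log2 -0.87), where 21.9% of all tested genes were. For 7 of the 12 the warm response was higher in spaQ, against 6.56% of all tested genes. With library totals that count was 2 in place of 7. The part of root and leaf make-up in the results for the 10 genes was not tested. Without both spaQ libraries of highest root marker sum, a choice made after seeing the data, the difference between the warm responses was 0.69 for NIR1 (edgeR adjusted p = 0.0187) and 0.61 for GLN2 (adjusted p = 0.00894), and GLN1;1 also passed with -0.95 (adjusted p = 0.0352). That choice left the Col-0 libraries as they were, where root marker sums differed most between temperatures, so it is no test of root make-up.

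**Figure D4:**
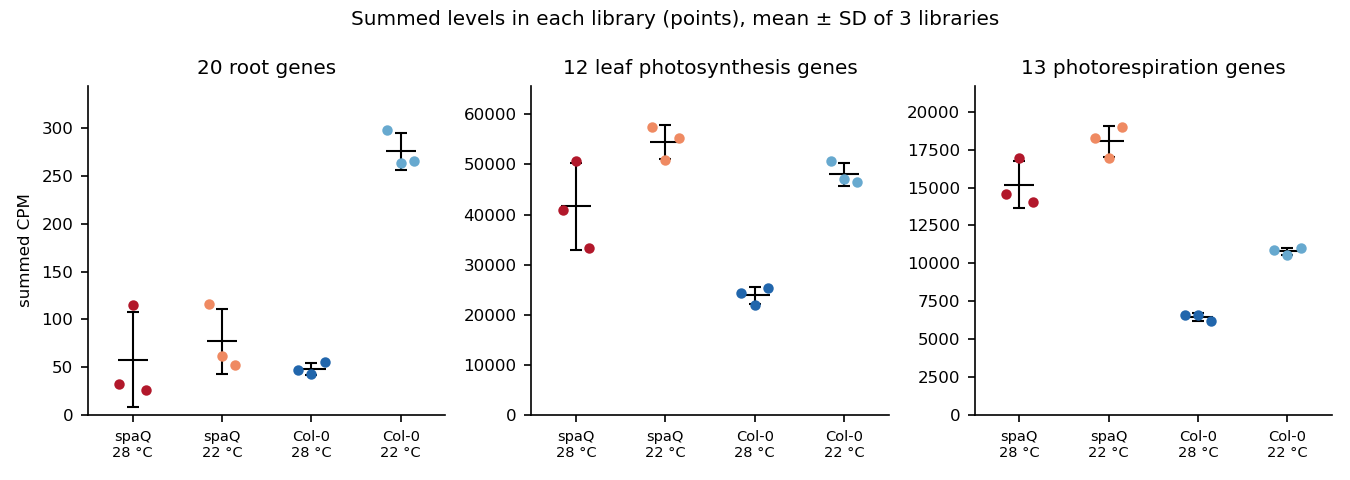
Summed CPM (vertical axes, from 0) of 20 root genes, 12 leaf photosynthesis genes and 13 photorespiration genes in every library. Points are libraries and bars are the mean ± SD of 3 libraries. Root genes summed to 263 to 298 in Col-0 at 22 °C and to at most 115.8 elsewhere, and leaf genes to at most 25300 in Col-0 at 28 °C.

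The pathway around the 10 genes was described through lists of known genes. Photorespiration, which sets free the ammonium that GLN2 and GLU1 recover, had 13 listed genes, of which 12 were tested. Warmth lowered all 12 in Col-0 (median log2 -0.79), where 21.9% of all tested genes were lower, and 3 of the 12 in spaQ (median -0.25), where 5.87% were lower. Without replicate 2 of spaQ at 28 °C, 9 of the 12 were lower in spaQ. Without both spaQ libraries of highest root marker sum, a choice made after seeing the data, 6 were lower. In spaQ against Col-0, 12 of 12 were higher at 28 °C (median 1.06) and 10 of 12 at 22 °C (median 0.53), against 17.4% and 20.7% of all tested genes. For 5 of the 12, and for 3 with library totals, the warm response was higher in spaQ, against 6.56% of all tested genes. AGT1, the serine-glyoxylate aminotransferase, had 1962, 2060 and 1700 CPM in spaQ at 28 °C, compared with 2635, 2450 and 2692 CPM in spaQ at 22 °C. It had 659, 652 and 621 CPM in Col-0 at 28 °C, against 1466, 1478 and 1627 CPM in Col-0 at 22 °C. It was lower at 28 °C in both genotypes, in Col-0 by more: the log2 changes were -0.44 ± 0.11 in spaQ and -1.24 ± 0.11 in Col-0 (edgeR, adjusted p = 0.0181 and 1.21e-05), and their difference was 0.80 ± 0.15 (adjusted p = 0.0078). The call in spaQ ended without replicate 1 of spaQ at 22 °C (-0.43, adjusted p = 0.059) and with only the spaQ libraries in the fit (-0.45, adjusted p = 0.173). Leaf marker sums, like the summed CPM of the 13 photorespiration genes (6185 to 6623), were lowest in Col-0 at 28 °C. The photorespiration sum was higher in spaQ at 28 °C (14040 to 16930) than in Col-0 at 22 °C (10520 to 10990). Leaf marker sums of those 2 groups overlapped. Between the genotypes, single leaf genes ran less in 1 direction than the photorespiration genes. At 28 °C, 6 of the 12 leaf genes were higher and 2 lower in spaQ (median log2 0.40). At 22 °C, 3 were higher and 5 lower (median -0.27). The shares of all tested genes were 17.4% and 13.5% at 28 °C, and 20.7% and 21.7% at 22 °C. The part of leaf make-up was not tested.

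GLYK, the glycerate kinase of the photorespiratory cycle, had 433, 426 and 349.6 CPM in spaQ at 28 °C, compared with 343, 343 and 357 CPM in spaQ at 22 °C. It had 135, 142 and 147 CPM in Col-0 at 28 °C, against 231, 246 and 259 CPM in Col-0 at 22 °C. Its level overlapped between temperatures in spaQ and was separate in Col-0. The difference between the warm responses was 1.01 ± 0.15 on the log2 scale (edgeR, adjusted p = 0.00296). The plastid dicarboxylate carrier DIT1, which brings in 2-oxoglutarate for glutamate synthase, was 2.47-fold lower at 28 °C in Col-0 (log2 -1.31 ± 0.16 SE, adjusted p = 6.56e-05). The glycine decarboxylase subunit GLDT was 2.62-fold lower in Col-0 and 1.59-fold lower in spaQ at 28 °C (adjusted p = 1.74e-05 and 0.0063), and the call in spaQ ended with only the spaQ libraries in the fit (adjusted p = 0.0841).

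Among 16 regulators of the nitrate response, all tested, warmth in Col-0 raised 2 and lowered 8 (median log2 -0.30), where 18.9% and 21.9% of all tested genes were called. With library totals the counts were 5 and 5, so the direction of this list in Col-0 depended on the scaling. In spaQ, edgeR called 0 for warmth, with 3 at an unadjusted p under 0.05 and 0 by DESeq2, and 2 higher and 1 lower without replicate 2 at 28 °C. Against Col-0, spaQ had 8 higher and 1 lower at 28 °C, where 17.4% and 13.5% of all tested genes were, and 5 higher and 1 lower at 22 °C, where 20.7% and 21.7% were. The medians were 0.56 and 0.30, and with library totals 5 were higher at 28 °C. BT1 and BT2, nitrate-inducible BTB and TAZ domain proteins that hold back nitrate uptake, were the 2 with a different warm response.

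BT2 had 495, 561 and 399 CPM in spaQ at 28 °C, compared with 507, 448 and 453 CPM in spaQ at 22 °C. It had 154, 135 and 133 CPM in Col-0 at 28 °C, against 313, 404 and 446 CPM in Col-0 at 22 °C. The warm Col-0 libraries were far below the other 9. BT2 was 2.75-fold lower at 28 °C in Col-0 (log2 -1.46 ± 0.16 SE, edgeR adjusted p = 3.48e-05), and its warm response was 1.51 ± 0.22 higher in spaQ (adjusted p = 0.00258). For BT1 that difference was 1.14 ± 0.21 (adjusted p = 0.00722). NLP7, a master transcription factor of the nitrate response, was 1.5-fold higher in spaQ at 22 °C (log2 0.58 ± 0.14, adjusted p = 0.00506).

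Of 17 other nitrate and ammonium transport genes 12 were tested. The high-affinity uptake gene NRT2.1 was among those that were not, with at most 0.9 CPM in any library. Warmth in Col-0 raised 5 and lowered 4 of the 12, where 18.9% and 21.9% of all tested genes were called, and in spaQ 2 were lower, where 5.87% were. Without replicate 2 of spaQ at 28 °C, 4 were lower and 1 was higher in spaQ. Against Col-0, spaQ had 7 higher and 1 lower at 28 °C, where 17.4% and 13.5% of all tested genes were, and 6 higher and 3 lower at 22 °C, where 20.7% and 21.7% were, with median log2 values of 0.70 and 0.64. At 28 °C, 4 were higher with library totals, and 6 were higher and 2 lower without replicate 2 of spaQ at 28 °C.

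NRT1.5, which loads nitrate into root xylem, had 10.3, 29.5 and 14.1 CPM in spaQ at 28 °C, compared with 10.4, 10.7 and 6.65 CPM in spaQ at 22 °C. It had 6.58, 12.8 and 7.12 CPM in Col-0 at 28 °C, against 73.3, 66.3 and 64.4 CPM in Col-0 at 22 °C. Only Col-0 at 22 °C was high, as it was for the root marker sum, and the part of root RNA in this was not tested. NRT1.5 was 8.12-fold lower at 28 °C in Col-0 (log2 -3.02 ± 0.32 SE, edgeR adjusted p = 3.53e-05), and the warm response was 3.99 ± 0.48 higher in spaQ on the log2 scale (adjusted p = 0.00123). NRT1.7, which loads nitrate into the phloem of older leaves, was 2.8-fold higher at 28 °C in Col-0 (log2 1.48 ± 0.23, adjusted p = 0.000289) and 5.06-fold higher in spaQ than in Col-0 at 22 °C (log2 2.34 ± 0.23, adjusted p = 1.16e-05). NRT1.8, which takes nitrate back out of the xylem, was 5.39-fold higher at 28 °C in Col-0 (log2 2.43 ± 0.55, adjusted p = 0.00356).

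Of 13 other enzymes of nitrogen assimilation 10 were tested, and in Col-0 warmth raised 2 and lowered 4 of them, where 18.9% and 21.9% of all tested genes were called. With library totals 3 were higher and 3 lower. In spaQ 1 was higher and 1 lower, where 6.55% and 5.87% of all tested genes were, and 3 and 2 without replicate 2 at 28 °C. Against Col-0, spaQ had 4 higher and 2 lower at 28 °C, where 17.4% and 13.5% of all tested genes were, and 3 higher and 1 lower at 22 °C, where 20.7% and 21.7% were. Without replicate 2 of spaQ at 28 °C, 5 were higher and 4 lower at 28 °C. ASN1, the asparagine synthetase known to rise in darkness and sugar shortage, had 594, 169 and 417 CPM in spaQ at 28 °C, compared with 125, 155 and 66.9 CPM in spaQ at 22 °C. It had 82.3, 58.1 and 62.6 CPM in Col-0 at 28 °C, against 133, 217 and 277 CPM in Col-0 at 22 °C. The genotypes moved in opposite directions and the temperatures overlapped in neither. ASN1 rose by 1.76 ± 0.42 (log2, SE) in spaQ (edgeR, adjusted p = 0.0169) and fell by 1.62 ± 0.41 in Col-0 (adjusted p = 0.00742), a difference of 3.38 ± 0.59 (adjusted p = 0.00559).

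The ASN1 rise in spaQ missed the threshold without replicate 1 or 3 of spaQ at 22 °C (1.82 and 1.48, edgeR adjusted p = 0.0542 and 0.0619) or replicate 1 of spaQ at 28 °C (1.33, adjusted p = 0.0689), and with only the spaQ libraries in the fit (1.75, adjusted p = 0.0836). ASN2, another asparagine synthetase, was lower at 28 °C in both genotypes, 2.24-fold in spaQ and 2.02-fold in Col-0 (adjusted p = 0.0206 and 0.0127). The call in spaQ was lost without replicate 1 of spaQ at 22 °C or 28 °C (adjusted p = 0.0711 and 0.071) and with only the spaQ libraries in the fit (adjusted p = 0.105), and that in Col-0 without replicate 2 or 3 of Col-0 at 28 °C (adjusted p = 0.0526 and 0.0525). ASP3, a peroxisomal aspartate aminotransferase, was 2.11-fold higher in spaQ at 28 °C and 2.68-fold higher at 22 °C (adjusted p = 0.00327 and 0.000514).

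**Figure D5:**
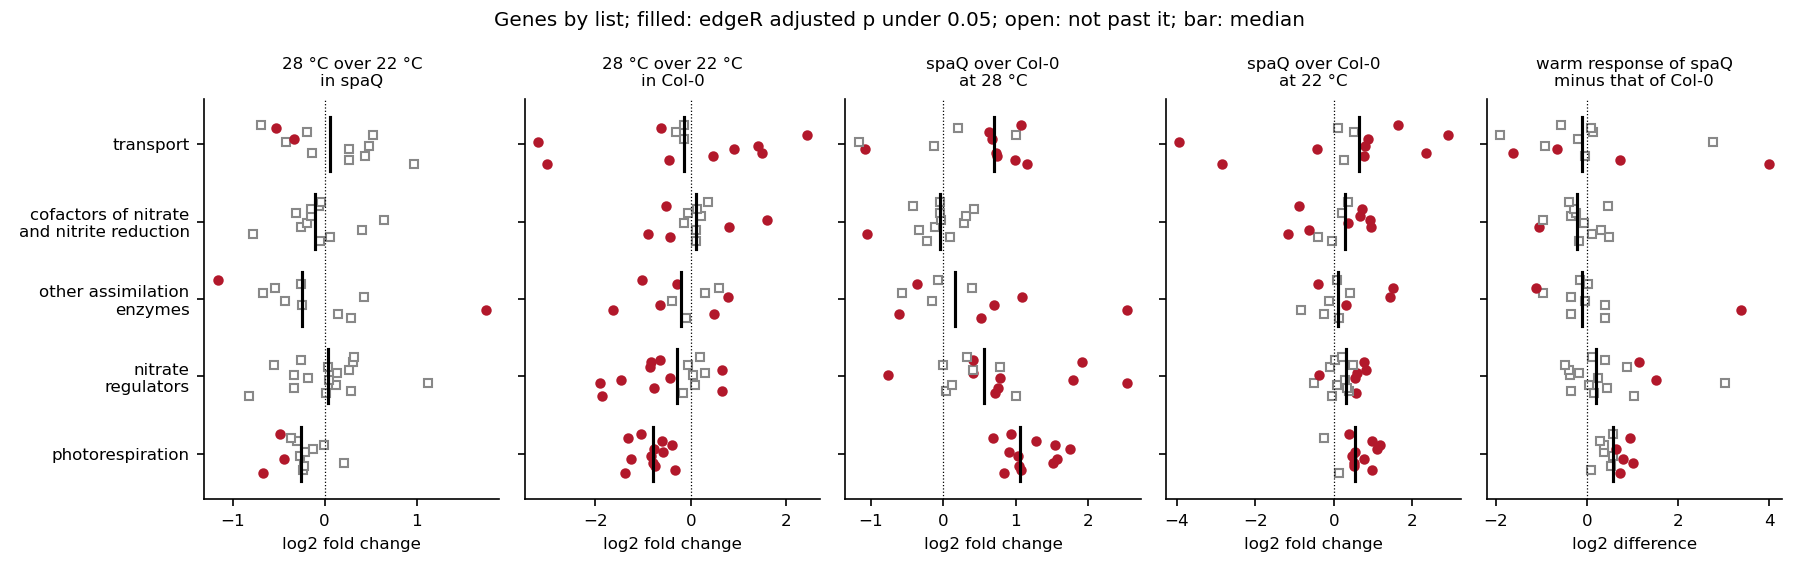
Log2 fold change (horizontal axes) of the tested genes of the 5 pathway lists in the 5 comparisons, with filled points for an edgeR adjusted p under 0.05, open points otherwise, and a bar at the list median. Photorespiration had medians of -0.79 for warmth in Col-0, 1.06 for genotype at 28 °C and 0.53 at 22 °C, and the transport genes spread to both sides of 0.

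The 10 genes did not vary together as a single group over the 12 libraries. The Pearson correlation of log2 CPM was 0.961 for NIA1 and GLU1, 0.917 for NIA2 and GDH2 and -0.922 for GLN1;3 and GLU1, and -0.065 for NIA2 and NIR1. The points share libraries and fall into 4 groups, so these values describe the group pattern and have no p. Among 12155 tested genes averaging at least 10 CPM, the gene most like each of the 10 over the same 12 libraries was found in the same way. It was ASP3 for GDH2 (r = 0.993), HCF152, a chloroplast RNA-binding protein, for GLU1 (0.989), AT2G41905 for NIA2 (0.987), AT3G20270 for NIA1 (0.979) and the jasmonate-responsive JR1 for GLN1;3 (0.978). It was AT3G08740 for GLN2 (0.976), PDE340 for NIR1 (0.968), AT3G51370 for GLN1;2 (0.955), LTL1 for NRT1.1 (0.949) and AT1G18160 for GLN1;1 (0.856). GDH2 and ASP3 were both highest in replicates 1 and 3 of spaQ at 28 °C, and lowest in Col-0 at 22 °C.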

How the data were processed

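Total RNA of 12 seedling libraries was made into 3′ Tag-Seq libraries, per the labels' protocols. The authors deposited raw whole-number read counts per gene, not normalised and not pooled. FastQC, Bowtie2, TopHat, HTSeq and edgeR are named in the submitters' processing notes, without versions or roles. The genome build, the strand setting and any removal of duplicate reads are not given in the sources used here. No molecular identifiers are mentioned, so reads may not be independent molecules. The summary lines at the foot of the count table are broken across columns and were not used, apart from the ambiguous reads, which came to between 0.453% and 0.616% of assigned and ambiguous reads.

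Counts were filtered with edgeR's filterByExpr by the 4 groups, scaled by TMM and tested with edgeR 4.0.16 in R 4.3.3 (glmQLFit and glmQLFTest, two-sided, 1 coefficient per group over all 12 libraries, no replicate block). Adjusted p-values are Benjamini-Hochberg values over all 17841 tested genes in each of 5 contrasts, with a threshold of 0.05. Each SE is the log2 fold change divided by the square root of its F statistic. The procedure was tested on simulated data. Paralogue shares were computed from raw counts and compared by exact two-sided permutation tests, whose smallest p with 3 against 3 libraries is 0.1. Correlations used log2 CPM with a prior count of 2. Total counts ran from 2609808 to 9390725, and 3 counts, the detection floor, correspond to between 0.319 and 1.15 CPM, which covers counting error only.

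Named were the 10 genes, for each pathway list and contrast at most the 4 called genes of largest log2 change with a mean of at least 10 CPM, and for each of the 10 the most alike gene. Other lists are given as counts. The genes, lists and tests were chosen with earlier results of these data known. Alternatives were a replicate block, the Wald test of DESeq2 1.42.0, its size factors in edgeR, library totals alone, no count filter, a filter on a mean of 10 counts, only the libraries compared, and each library left out in turn. Annotation overlaps were read from RefSeq's TAIR10.1, from which no coordinates are given because the build of the counts is not named. In it, none of the 10 genes shared a stretch of 50 nt of the last 500 nt of its transcript with another gene.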

Additional observations from a re-analysis of the deposited data

Results flagged for a closer look

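The warm response differed between the genotypes, by edgeR's interaction test over all tested genes, for NIR1 and GLN2 among the 10 genes and for 13 pathway genes named by rule. Each value below is the log2 difference of the warm responses, spaQ minus Col-0, with its SE and adjusted p. For NIR1 it was 0.834 ± 0.189 (adjusted p = 0.0162) and for GLN2 0.842 ± 0.214 (adjusted p = 0.0255).

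Higher responses in spaQ were found for NRT1.5 (3.991 ± 0.481, adjusted p = 0.00123), ASN1 (3.377 ± 0.585, adjusted p = 0.00559), BT2 (1.509 ± 0.216, adjusted p = 0.00258), BT1 (1.142 ± 0.209, adjusted p = 0.00722), GLYK (1.008 ± 0.151, adjusted p = 0.00296), DIT1 (0.943 ± 0.219, adjusted p = 0.0179), AGT1 (0.8 ± 0.15, adjusted p = 0.0078), GLDT (0.718 ± 0.181, adjusted p = 0.0244) and AMT1;2 (0.717 ± 0.201, adjusted p = 0.0368). Lower responses in spaQ were found for NRT1.7 (-1.619 ± 0.311, adjusted p = 0.0087), ASP2 (-1.118 ± 0.334, adjusted p = 0.0474), CNX2 (-1.051 ± 0.258, adjusted p = 0.0225) and NRT1.4 (-0.653 ± 0.197, adjusted p = 0.0493).

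Several of these calls ended when 1 library was left out, and those of AMT1;2 and GLDT also with library totals (0.54 for each, adjusted p = 0.125 and 0.0875) and without a filter on low counts (0.62 for each, adjusted p = 0.0826 and 0.0568). NIR1 and GLN2 are given in the report. The difference for AMT1;2 became 0.48 to 0.80 (adjusted p = 0.0515 to 0.137) without any replicate of Col-0 at 22 °C, replicate 1 or 3 of Col-0 at 28 °C, replicate 2 or 3 of spaQ at 22 °C or replicate 2 of spaQ at 28 °C. That for NRT1.4 became -0.74 to -0.58 (adjusted p = 0.0604 to 0.11) without any replicate of either genotype at 22 °C, replicate 1 or 2 of Col-0 at 28 °C or replicate 3 of spaQ at 28 °C. That for ASP2 became -1.25 to -0.89 (adjusted p = 0.0714 to 0.12) without any replicate of Col-0, or replicate 2 or 3 of spaQ at 22 °C. That for GLDT became 0.65 to 0.74 (adjusted p = 0.0503 to 0.0864) without any replicate of Col-0 at 22 °C, replicate 2 or 3 of Col-0 at 28 °C or replicate 2 or 3 of spaQ at 22 °C. That for DIT1 became 0.88 to 0.89 (adjusted p = 0.0534 to 0.0642) without replicate 1 or 2 of Col-0 at 22 °C or replicate 2 or 3 of spaQ at 22 °C. That for CNX2 became -1.05 to -0.93 (adjusted p = 0.05 to 0.0576) without replicate 1 or 2 of Col-0 at 22 °C, replicate 2 of Col-0 at 28 °C or replicate 2 of spaQ at 22 °C. No explanation of any of these differences was tested.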

How the results depend on the processing

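The replicate numbers did not pair the libraries: the correlation of same-numbered deviations ran from -0.0108 to 0.00425 between temperatures in Col-0, from -0.365 to 0.135 in spaQ, from 0.00104 to 0.031 between genotypes at 22 °C and from -0.207 to -0.0516 at 28 °C. With the replicate block, edgeR called 5 of the 10 genes for warmth in Col-0, 0 in spaQ, 6 and 9 for genotype at 22 °C and 28 °C, and 2 for the interaction, and the single lost call was GLN1;3 for warmth in Col-0 (adjusted p = 0.0618). It called 1340 of all genes for the interaction, against 2111 without it. Leaving out 1 library gave 0 to 3 of the 10 for warmth in spaQ, where 1 was called without both spaQ libraries of highest root marker sum, an alternative chosen after seeing the data. It gave 0 to 3 for the interaction, where library totals gave 1, GLN1;1 (-0.88, adjusted p = 0.0454) in place of NIR1 (0.65, adjusted p = 0.0545) and GLN2 (0.66, adjusted p = 0.0772). Library totals also ended the calls at 28 °C of NIR1 (0.23, adjusted p = 0.22) and GLN1;2 (0.29, adjusted p = 0.0583). The count of all genes called for warmth in spaQ, 2217, was 418 with only the libraries compared, 1088 without replicate 1 of spaQ at 22 °C, and 1371 and 4023 without replicate 1 and 2 of spaQ at 28 °C. That for the interaction was 886 to 1274 without any Col-0 replicate at 22 °C, replicate 2 or 3 of Col-0 at 28 °C or of spaQ at 22 °C. The sign changed only for values past the threshold under neither setting. With library totals these were, for warmth in Col-0, NIA1 (0.052) and GLN1;2 (0.083), and for the interaction NIA2 (-0.152), NRT1.1 (-0.134) and GLU1 (-0.056). Without a filter they were NIA2 (-0.067) and NRT1.1 (-0.05) for the interaction, and NIA2 was -0.008 under the size factors of DESeq2 and -0.007 under its Wald test. Without both spaQ libraries they were GLN1;1 (-0.127) and GLN1;3 (0.062) for warmth in spaQ and NIA2 (-0.036) for the interaction. Leaving out 1 library gave -0.079 to 0.248 for GLN1;1, -0.347 to 0.019 for GLN1;3 and -0.026 to 0.339 for GLN2 for warmth in spaQ, and -0.046 to 0.053 for NIA2, -0.12 to 0.131 for NRT1.1 and -0.052 to 0.197 for GLU1 for the interaction. For paralogue shares, leaving out 1 of 3 libraries cannot move a difference by 1 pooled SD, so that limit tested nothing. The GLN1;3 difference between genotypes ran from -9.95 to -8.19 percentage points at 28 °C and from -5.95 to -5.1 at 22 °C. For warmth in spaQ, the NIA2 difference ran from 6.06 to 10.78 points and the GLN2 difference from -2.62 to 2.92. Among the named pathway genes, 7 calls ended with the replicate block: AMT1;2 (adjusted p = 0.0535), NRT1.4 (0.0828), ASP2 (0.0814) and GLDT (0.058) for the interaction, and AGT1 (0.0502), AMT1;1 (0.0971) and DIT2 (0.0589) for warmth in spaQ. None changed sign under any setting. The cause of these changes was not tested.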

Other observations

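The cofactors and electron donors of nitrate and nitrite reduction were described through a list of 12 genes, all tested. For warmth in Col-0, 2 were higher and 3 lower, where 18.9% and 21.9% of all tested genes were. With library totals 4 were higher and 1 lower, so the balance of this list in Col-0 depended on the scaling. In spaQ edgeR called 0, with 3 at an unadjusted p under 0.05 and 1 by DESeq2, and 2 higher and 1 lower without replicate 2 at 28 °C. Against Col-0, spaQ had 1 lower at 28 °C, where 13.5% of all tested genes were, with 2 higher beside it without that replicate and 4 lower with library totals. At 22 °C it had 5 higher and 3 lower at 22 °C, where 20.7% and 21.7% of all tested genes were. RFNR1 and RFNR2, the root-type ferredoxin reductases that supply electrons for nitrite reduction outside green tissue, ran in opposite directions. RFNR1 was 3.04-fold higher at 28 °C in Col-0 (log2 1.60 ± 0.26 SE, edgeR adjusted p = 0.000373) and RFNR2 was 1.86-fold lower (log2 -0.90 ± 0.22, adjusted p = 0.00575). RFNR2 was also 2.07-fold lower in spaQ than in Col-0 at 28 °C (adjusted p = 0.00579) and 2.25-fold lower at 22 °C (adjusted p = 0.00165). UPM1, which makes the precursor of the siroheme that NIR1 carries, had 54.1, 39.5 and 40.1 CPM in spaQ at 28 °C, compared with 45.4, 55.4 and 37.8 CPM in spaQ at 22 °C. It had 54.4, 55.6 and 68.0 CPM in Col-0 at 28 °C, against 79.6, 92.5 and 83.6 CPM in Col-0 at 22 °C. Like NIR1 it was separate between temperatures in Col-0 and overlapped in spaQ. Its difference between the warm responses did not pass edgeR's test, whereas that of NIR1 did. At 28 °C its mean was lower in spaQ than in Col-0 (44.5 and 59.3 CPM, not past the threshold), where NIR1 was higher. At 22 °C it was 1.84-fold lower in spaQ (log2 -0.88 ± 0.16, edgeR adjusted p = 0.000974). Its fall in Col-0 (log2 -0.52 ± 0.16, adjusted p = 0.017) was lost with library totals (adjusted p = 0.108) and without replicate 2 of Col-0 at 22 °C or replicate 1 or 2 of Col-0 at 28 °C (adjusted p = 0.107, 0.0713 and 0.0606). CNX2, which starts the molybdenum cofactor pathway that nitrate reductase needs, was 1.73-fold higher at 28 °C in Col-0 (adjusted p = 0.00403) and 1.91-fold higher in spaQ than in Col-0 at 22 °C (adjusted p = 0.00179).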
